A study of Homo sapiens with 9 samples.

Results

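The comparison concerns where a GFP antibody enriched chromatin in 786-O cells that carry eGFP at ZNF395, set against the same antibody in parental 786-O cells without the tag. It rests on the authors' 2 peak lists, which together hold 23395 of the 52875 peaks in the 5 lists of the series. The tagged list has 20034 peaks and the parental list 3361. A pair of peaks that overlapped by 1 bp or more was called common, a tagged peak with no parental partner was called gained, and a parental peak with no tagged partner was called lost. These names describe membership of the lists and no more, since each side is 1 library.

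786-O is an established human cell line from a clear cell renal cell carcinoma. The tagged cells had been electroporated with a donor plasmid and a guide plasmid that place a LAP tag, a protein tag containing eGFP, at the end of the ZNF395 gene. The labels do not say whether the tagged cells were a single clone or a pool. The parental cells are the same line without the knock-in and were precipitated with the same antibody. Each GFP library was called against its own control library, and the control named for the parental list is also the one named for the MYC list of the series.

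ZNF395 is a zinc finger protein of the nucleus that binds DNA and is known as a transcription factor. Where no specific antibody is used, a tagged factor is located through its tag, and the untagged parent shows which sites the tag antibody enriches without it. Such background sites are often strongly transcribed, open or repetitive DNA. The score of each peak is the authors' own, read as the −log10 of a p or q, and depends on the depth and control of its library. The size of a score is therefore compared within a list, and where common pairs are described the 2 lists' scores or ranks stand side by side with no change read from them.

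Of the tagged peaks, 17596 were gained, which is 87.8% of the list (exact binomial 95% interval 87.4 to 88.3), and 2438 were common. Of the parental peaks, 2561 were common (76.2%, 74.7 to 77.6) and 800 were lost, which is 23.8% (22.4 to 25.3). These 2 shares are set by the overlap rule and by the lengths of the lists, and nothing more is read from them. The lengths of the lists differ 5.96-fold. Common peaks covered 1873 kb of the tagged list with a mean width of 768 bp, and gained peaks covered 8694 kb with a mean width of 494 bp. In the parental list, common peaks covered 691 kb with a mean width of 270 bp, and lost peaks covered 159 kb with a mean width of 199 bp.

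The overlap rule left few peaks near its edge. Of the common pairs, 32 overlapped by less than 50 bp, while 14 lost peaks and 13 gained peaks lay within 50 bp of a peak in the other list. Just inside the rule was a pair on chromosome 8, a tagged peak at 107072162 to 107072577 (score 8.54) and a parental peak at 107072577 to 107072839 (score 6.19), which met in 1 bp. Just outside it was a pair on chromosome 19, a tagged peak at 52772717 to 52773122 (score 9.24) and a parental peak at 52772591 to 52772712 (score 3.34), which missed each other by 4 bp. Coordinates throughout are those of hg19, counted from 1.

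Within the tagged list, common peaks scored higher than gained peaks and, under the overlap rule of 1 bp, were wider. Their median score was 27.0, against 11.8 for gained peaks, and their middle 50% lay between 14.8 and 46.3, against 6.64 and 23.8. The median width was 641 bp in common and 368 bp in gained peaks, and 26.8% of common peaks (25.1 to 28.6) were over 1000 bp wide, against 9.52% of gained peaks (9.10 to 9.97). Scores under 5 were found in 3.20% of common and 13.9% of gained peaks. Where peaks had to share 50% of each other's length, the direction in width turned, with medians of 307 bp in common and 399 bp in gained peaks, and the medians differed by 7.14 in score in place of 15.2. The classes still overlapped widely, since gained peaks reached a score of 313, above the highest common peak at 258.

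Within the parental list, common peaks scored higher and were wider than lost peaks. The median score was 7.16 in common and 5.35 in lost peaks, and the median width 206 bp in common and 157 bp in lost peaks. With 50% reciprocal overlap the medians differed by 8.09 in score, in place of 1.81. Of the lost peaks, 45.6% (42.1 to 49.1) scored under 5, against 28.5% (26.7 to 30.3) of the common peaks. The narrowest width in the parental list, 122 bp, was held by 12.8% of lost peaks (10.5 to 15.3) and 4.14% of common peaks (3.40 to 4.98). No lost peak scored above 67.5, while common parental peaks reached 172.

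**Figure D1:**
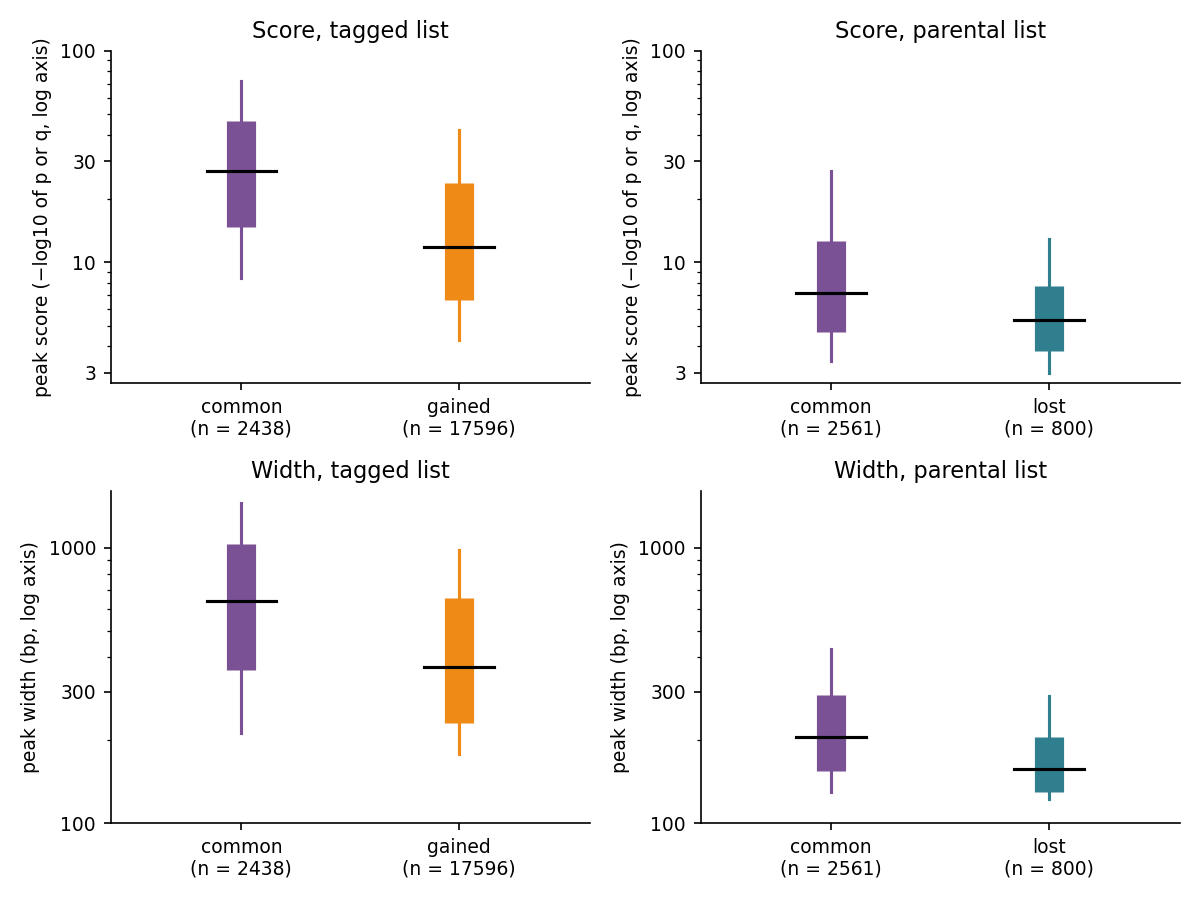
Peak scores (top, −log10 of a p or q) and widths (bottom, bp) on log axes, for common and gained peaks of the tagged list (left) and common and lost peaks of the parental list (right). Black lines are medians, thick bars the middle 50% and thin lines the 10th to 90th percentiles; in the tagged list the medians are 27.0 and 11.8 for score and 641 and 368 bp for width, and scores should not be compared between the left and right panels.

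The share of common peaks was larger at high than at low scores in both lists. Each list was divided by score into 10 groups of near equal size. In the lowest group of the tagged list 3.19% of peaks (2.47 to 4.06) had a parental partner, against 29.5% (27.5 to 31.5) in the highest group. Most of the strongest tagged peaks were therefore gained. In the parental list, 65.9% (60.5 to 70.9) of the lowest group and 88.7% (84.8 to 91.9) of the highest group had a tagged partner. Wider peaks have more length in which to meet another peak, and the median width was 228 bp in the lowest and 883 bp in the highest tagged group. Within each of the 10 tagged groups common peaks had the larger median width. In the highest group their median was 1009 bp, against 841 bp in gained peaks.

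**Figure D2:**
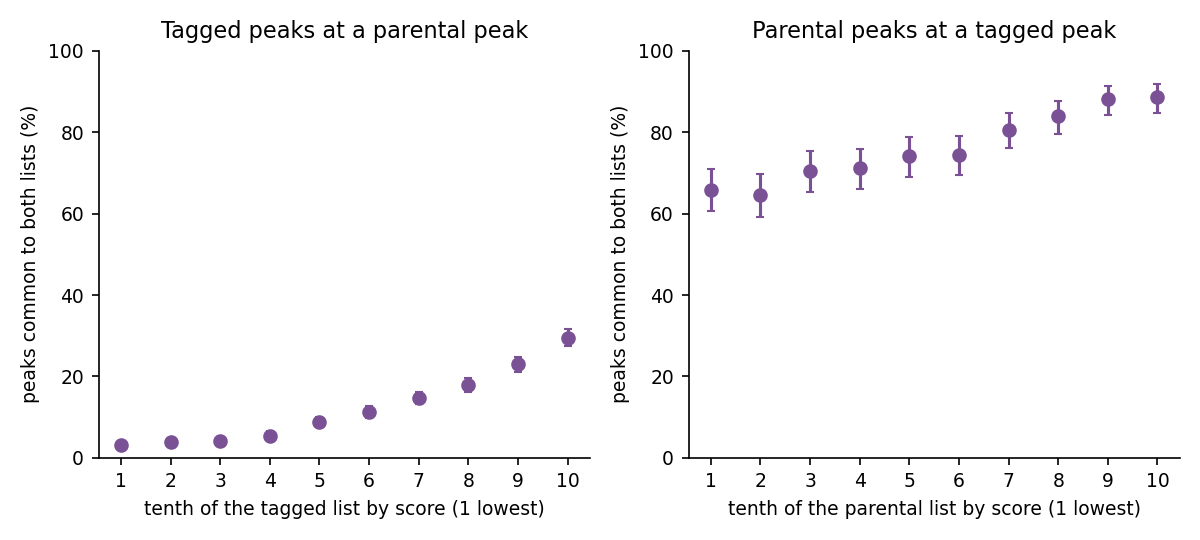
Share of peaks common to both lists (%, y axis) in 10 score groups of the tagged list (left) and of the parental list (right), from lowest to highest score (x axis). Points are shares and bars exact binomial 95% intervals; the tagged share runs from 3.19% to 29.5% and the parental share from 65.9% to 88.7%.

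The 10 gained peaks of highest score lay 15135 bp or more from any parental peak. They scored between 240.5 and 313, were 651 to 1771 bp wide and lay on 8 chromosomes. The nearest parental peak was up to 1386393 bp away, with a median of 452925 bp, against 216343 bp over all gained peaks. The gained peak on chromosome 5 at 25544631 to 25545427 (score 299.6) was the most remote from parental peaks, and yet it had another tagged peak 288 bp away. The one nearest to a parental peak, 15135 bp away, scored 243 and spanned chr17:66031473-66032389. All 10 had a peak in the tagged A498 list, from the second carcinoma line of the series, and none had one in the parental A498 list. Among gained peaks of the highest tagged score group, these shares were 68.8% and 0.849%.

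The 10 common tagged peaks of highest score, chosen by their score in tagged cells, had parental partners from all through the parental list. They scored between 187 and 258. Their parental partners had ranks between 1 and 3255 of 3361 and a median score of 7.45, against 6.56 over the parental list. The highest, on chromosome 11 at 65655782 to 65656755 (974 bp, score 258), had a parental peak of 221 bp with a score of 3.67 and rank 2850. The second, on chromosome 21 at 34914223 to 34916269 (2047 bp, score 246), covered a parental peak of 134 bp with a score of 6.35. The third, on chromosome 1 at 46597939 to 46599238 (score 239), had a parental peak of 189 bp with a score of 2.65, close to the lowest score of that list, 2.00. At 9 of the 10 sites the parental rank lay between 496 and 3255.

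The exception was on chromosome 17 at 19091226 to 19091571, where tagged cells had a peak of 346 bp with a score of 205. Its parental partner, at 19091278 to 19091579, was 302 bp wide and headed the parental list with a score of 172. This was the pair with the best sum of ranks. The next pair was chr1:28974968-28976070, which ranked 250 in the tagged and 4 in the parental list. The others were chr3:156877112-156878687 (85 tagged, 228 parental), chr13:113951125-113952060 (326 tagged, 3 parental) and chr1:16839473-16840939 (389 tagged, 6 parental). All 5 of these parental peaks overlapped a parental A498 peak, and all 5 tagged peaks overlapped a tagged A498 peak. In the highest parental score group 91.1% of peaks overlapped a parental A498 peak. Of common peaks in the highest tagged score group, 84.8% overlapped a tagged A498 peak.

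Common pairs whose ranks differed most were picked by score rank, and width went with score in the tagged list. The 5 whose tagged rank, as a share of its list, stood furthest above the parental one had tagged peaks of 795 to 2035 bp with scores of 90.1 to 239, and parental peaks of 159 to 227 bp with scores of 2.07 to 2.65. The first was on chromosome 9 at 127702962 to 127703800, in the upper 0.304% of the tagged list and at 97.9% of the way down the parental list. None of these 5 parental peaks overlapped a parental A498 peak, while 4.15% of all peaks in the lowest parental score group did. The 5 at the other extreme had narrow tagged peaks of 192 to 275 bp with scores of 2.96 to 5.37, and parental peaks of 237 to 2322 bp with scores of 19.96 to 46.3. They were on chromosome 1 at 78470353 to 78470544 and 59245561 to 59245835, chromosome X at 153629517 to 153629745, chromosome 5 at 172193680 to 172193880 and chromosome 12 at 53298736 to 53298990. Common tagged peaks had a median width of 1009 bp in the highest and 257 bp in the lowest tagged score group. For common parental peaks it was 232 bp in the highest and 187.5 bp in the lowest parental group. The pick by rank therefore sets part of these widths. Ranks in lists of unequal length show no change, so these pairs are described and not tested.

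At common sites, the parental peak usually lay inside a wider tagged peak. Among the 2585 common pairs, 2013 parental peaks (77.9%) lay wholly within their tagged peak, and the tagged peak was the wider in 2399 (92.8%). The median ratio of tagged to parental width was 2.85. Peaks were wider over the whole tagged list too, with a median of 393 bp against 192 bp in the parental list. The narrowest widths were 157 bp in the tagged and 122 bp in the parental list. Midpoints lay a median of 103 bp apart, with a middle 50% of 31.5 to 232.5 bp. Of the common tagged peaks, 134 held 2 or more parental peaks, and 17 parental peaks held 2 or more tagged peaks. Spearman's rho of tagged and parental scores was 0.11 across the 2585 pairs, which are not independent and share the list each comes from.

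Pairs whose parental peak was also called in parental A498 cells, a background library of another line with its own control, were more alike in shape. At 627 such pairs the median width was 391 bp in tagged and 245 bp in parental peaks, the median ratio was 1.27, and midpoints lay a median of 25 bp apart. At the other 1958 pairs the medians were 771 bp for tagged and 199 bp for parental peaks, with a ratio of 3.45 and midpoints 122.75 bp apart. Spearman's rho of the scores was 0.39 in the first set and 0.12 in the second. The parental peaks themselves had a median score of 21.6 in the first set and 6.03 in the second, while the tagged peaks there had medians of 25.7 and 28.8. Whether the closer shapes go with the higher parental scores was not tested.

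A smaller share of lost than of common parental peaks lay at A498 peaks. Tagged A498 peaks overlapped 45.5% (43.5 to 47.4) of common parental peaks and 5.63% (4.13 to 7.45) of lost peaks. Parental A498 peaks overlapped 24.0% (22.3 to 25.7) of common and 14.1% (11.8 to 16.7) of lost peaks. By parental score, the common share was the larger in all 10 groups for tagged A498 peaks and in 5 of the 10 for parental A498 peaks. In the ninth group, with scores of 13.5 to 24.6, parental A498 peaks overlapped 56.8% (50.9 to 62.5) of common and 65.0% (48.3 to 79.4) of lost peaks. Of the 800 lost peaks, 671 (83.9%) were at neither A498 list, as were 1188 of the 2561 common ones (46.4%). The parental peaks at neither list were called again in tagged cells in 63.9% of cases (61.7 to 66.1). That share was 97.9% (96.7 to 98.8) for the 775 parental peaks at a tagged A498 peak alone. It was 93.3% (90.5 to 95.5) for the 434 at both A498 lists and 71.3% (65.8 to 76.4) for the 293 at a parental A498 peak alone.

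Peaks at a tagged A498 peak alone and peaks at neither list also stood apart among weak parental peaks. With scores under 5, 97.2% (93.97 to 98.96) of 213 parental peaks at a tagged A498 peak alone were also called in tagged 786-O, against 58.6% (55.2 to 62.0) of 836 at neither list. With scores from 10 to 20 the shares were 99.4% (96.6 to 99.98) of 164 and 78.7% (72.2 to 84.3) of 188, while parental peaks at a parental A498 peak alone had 68.7% (57.6 to 78.4) of 83. Parental peaks at a parental A498 peak alone had high scores, with a median of 18.4 among common and 16.8 among lost ones. With scores of 20 or more, 74.6% (66.2 to 81.8) of 130 of them were called in tagged cells.

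**Figure D3:**
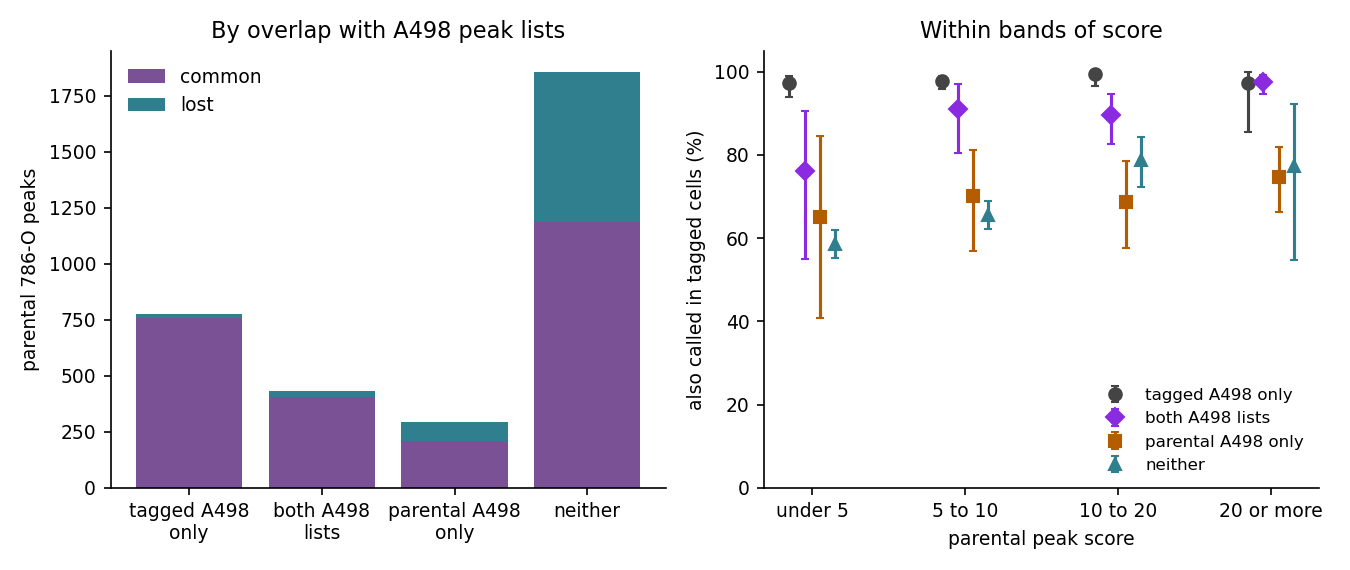
Parental 786-O peaks by overlap with the A498 lists: their number (left, common below lost) and the share also called in tagged 786-O within bands of parental score (right, with exact binomial 95% intervals). Of 1859 peaks at neither list 1188 were common and 671 lost, and in the lowest band 97.2% of peaks at a tagged A498 peak alone were called again against 58.6% of those at neither list.

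The tagged list showed a like division. Of the common tagged peaks, 50.2% (48.2 to 52.2) overlapped a tagged A498 peak and 25.2% (23.5 to 27.0) a parental A498 peak. Of the gained peaks, 16.3% (15.8 to 16.9) overlapped a tagged A498 peak, and only 172 (0.977%, 0.837 to 1.13) a parental A498 peak. The higher share of common peaks with a tagged A498 peak was seen in each of the 10 groups by tagged score. In the highest group it was 84.8% (81.6 to 87.6) of common against 68.8% (66.3 to 71.2) of gained peaks. In the lowest it was 20.3% (11.3 to 32.2) of 64 common against 1.49% (1.00 to 2.14) of gained peaks.

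The gained peaks were themselves uneven. At a MYC peak and a tagged A498 peak lay 2496 of them (14.2%), which had a median score of 36.2 and were 847 bp wide in the median. At neither lay 6863 (39.0%), whose medians were 7.68 in score and 237 bp in width. MYC is a transcription factor that binds near the starts of many active genes, and the library counts as MYC by its title and antibody, while its target field names P300. Peaks that had a MYC but no tagged A498 peak numbered 7859, and their medians were 13.2 in score and 463 bp in width. The 378 with a tagged A498 but no MYC peak had a median score of 22.8. Wider peaks have more length in which to meet peaks of other lists. The MYC share over all tagged peaks is not given here, so these counts show nothing particular to gained peaks. Gained peaks are also defined by the parental list, which names the same control library as the MYC list.

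Gained peaks mostly lay far from parental peaks, of which there are only 3361 in the genome. With so few, most positions lie far from one, and distances from random positions were not computed. The nearest parental peak was a median of 216343 bp away, and 2443 gained peaks (13.9%) had none within 1 Mb on either side. Another 9 lay on contigs with no parental peak. Only 273 (1.55%) lay within 500 bp of a parental peak and 1438 (8.17%) within 10 kb. Those within 500 bp had a median score of 9.51 and overlapped a parental A498 peak in 8.42% of cases (5.42 to 12.4), against 0.541% (0.402 to 0.712) of gained peaks at 100 kb to 1 Mb.

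Lost peaks lay closer to peaks of the other list, which is 5.96 times as long. The nearest tagged peak was a median of 10441 bp away, 121 lost peaks (15.1%) had one within 500 bp and 389 (48.6%) within 10 kb. Lost peaks over 100 kb from a tagged peak numbered 152, with a median width of 142 bp and a median score of 4.86. Among these, 4.61% (1.87 to 9.26) overlapped a parental A498 peak, against 25.6% (18.1 to 34.4) of those within 500 bp.

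The 10 lost peaks of highest score were narrow and mostly lay in clusters, as did other lost peaks of like score or at parental A498 peaks. Their scores ran from 39.1 to 67.5, their median width was 126.5 bp, 9 overlapped a parental A498 peak and 7 lay in clusters. In the highest of the 10 parental score groups, parental A498 peaks overlapped 89.5% of lost and 91.3% of common peaks. Lost peaks of that group had a median width of 128 bp. Of all lost peaks at a parental A498 peak alone, 64.3% lay in clusters, and of those at both A498 lists 65.5%. The highest of the 10, on chromosome 17 at 42422301 to 42422591 (score 67.5), stood alone, with the nearest tagged peak 17784 bp away. So did the second, on chromosome 9 at 99002292 to 99002432 (score 54.9), which overlapped peaks of both A498 lists. Next came chr8:43821092-43821213 with 54.3, chr17:22250082-22250203 with 53.2, chr17:22254133-22254264 with 48.3 and chr16:46434354-46434475 with 45.5. The last 4 began at 58866001 on chromosome Y, at 43092834 and 46844789 on chromosome 8, and on a random contig of chromosome 9. At 3 of the 10, all in clusters, the nearest tagged peak was less than 1 kb away.

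The widest peaks of each class are given by place and score. Among the 5 widest, scores ran from 14.7 to 89.1 in common tagged peaks and from 36.7 to 99.02 in gained peaks. The 2 widest common tagged peaks outside the mitochondrial genome were on chromosome 13 at 110433965 to 110439983 (6019 bp, score 89.1) and chromosome 19 at 1247863 to 1253590 (5728 bp, score 47.6). Each held 2 parental peaks. The widest gained peaks were on chromosome 8 at 145023682 to 145027619 (3938 bp, score 99.02) and chromosome 16 at 85644092 to 85647949 (3858 bp, score 40.8). The widest lost peaks were on chromosome 1 at 68154232 to 68155874 (1643 bp, score 14.4) and chromosome 17 at 62494132 to 62495648 (1517 bp, score 8.09). A tagged peak lay 372 bp from the lost peak on chromosome 17 and 1587 bp from that on chromosome 1. On the mitochondrial genome all 3 tagged peaks were common, and the largest spanned 10791 bp, against 10813 bp in its parental partner.

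A few parental peaks were wide. Outside the mitochondrial genome, 38 were over 1000 bp, with a median score of 20.0, against 6.56 over the list. Of these, 27 (71.1%, 54.1 to 84.6) overlapped a parental A498 peak, against 21.6% of the list and 57.7% of all parental peaks with scores of 13.5 to 24.6. The peaks with those scores had a median width of 262.5 bp, and wider peaks have more length in which to meet another. Tagged peaks were called at 34 of the 38. At 16 of these 34 the strongest tagged partner was narrower than the parental peak. Over all 2585 common pairs, the tagged peak was narrower in 184. At 8 of the 38, tagged cells had 2 or more separate peaks under 1 parental peak, against 8 of the 3321 parental peaks of 1000 bp or less, a comparison in which width alone gives more room for several peaks. At 10 of the 38, tagged peaks covered less than 50% of the parental peak. Picking the widest parental peaks by itself makes narrower partners and low cover more likely, so nothing more is read from these counts.

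Common tagged peaks were more often crowded than gained ones. A cluster was taken as 3 or more peaks of a list, each within 10 kb of the next. Of the common tagged peaks, 32.4% (30.5 to 34.3) lay in clusters of the tagged list, against 16.8% (16.2 to 17.3) of the gained peaks. Of the parental list, 20.4% of common peaks (18.9 to 22.04) and 22.4% of lost peaks (19.5 to 25.4) lay in its clusters. Leaving out the 30 bins of 1 Mb with 10 or more parental peaks, the share in clusters was 22.4% of common tagged, 15.8% of gained and 13.7% of lost peaks. With 50% reciprocal overlap it was 51.7% of common tagged, 17.4% of gained and 15.5% of lost peaks. The median distance to the next tagged peak was 7774 bp for common and 17330.5 bp for gained peaks, and 31.0% and 21.8% of them had one within 1 kb. In the parental list the distance to the next parental peak was 57973 bp for common and 81802 bp for lost peaks.

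The tagged list formed 936 clusters, of which 554 held no common peak and 17 held common peaks alone, while the other clusters were mixed. Of the 122 parental clusters, 4 held no common peak. The tagged cluster with most common peaks was on chromosome 16 at 46385913 to 46435566, with 30 common and 6 gained peaks in 49.7 kb and a median score of 23.01. There the parental list had 38 peaks, of which 33 were common and 5 lost, and all 38 overlapped parental A498 peaks. The next was on chromosome 2 at 92269425 to 92325281, with 28 common and 1 gained peak, and then that on chromosome 10 at 42380127 to 42409370, where all 20 tagged peaks were common. Of the 22 tagged clusters of 10 or more peaks, 11 had most of their peaks at parental A498 peaks and 9 had none there. No repeat annotation of hg19 was used here, and whether the dense stretches hold repeats was not tested.

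The clusters with most gained peaks lay elsewhere. They were ranked by count, and over the whole tagged list 87.8% of peaks were gained. One on chromosome 7 at 27182640 to 27224495 held 20 peaks in 41.9 kb, all gained, with scores of 3.08 to 43.0 and a median width of 492 bp, and no parental peak fell within it. Its neighbour, at 27135467 to 27170768, held 17 peaks, all gained, with scores of 3.77 to 107. On chromosome 17, at 46655446 to 46724366, 17 of 18 peaks were gained. None of the peaks in these 3 clusters overlapped a parental A498 peak, and 4, 2 and 2 of them overlapped a tagged A498 peak. Over all gained peaks these shares were 0.977% and 16.3%. Others were on chromosome 1 at 43379138 to 43428580, with 11 gained of 13 peaks, and on chromosome 5 at 139015356 to 139053782, with 10 of 11. In the parental list, the cluster on chromosome 7 at 5562210 to 5570359 was among the 5 with most lost peaks. It had 7 parental peaks of a median width of 534 bp, of which 2 were common and 5 lost, and 3 tagged peaks lay in its span.

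**Figure D4:**
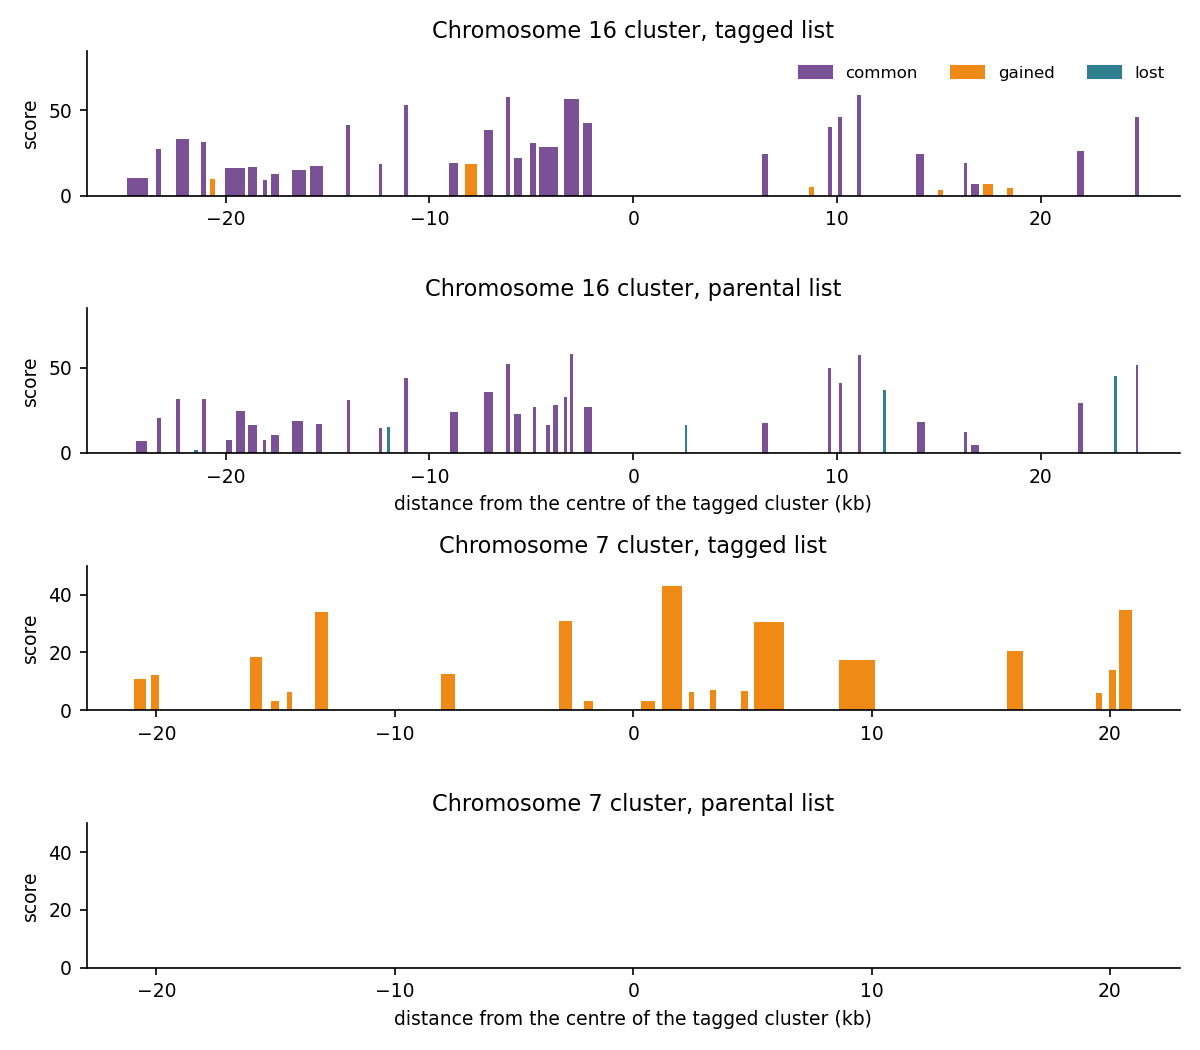
Peaks of the tagged and parental lists along a cluster on chromosome 16 (upper pair) and one on chromosome 7 (lower pair); x is distance from the centre of the tagged cluster in kb, bar width the peak width and bar height the authors' score, which is not comparable between lists. On chromosome 16, 30 of 36 tagged peaks were common and 33 of 38 parental peaks were; on chromosome 7 all 20 tagged peaks were gained and there was no parental peak.

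By 1 Mb bins, gained peaks were spread over 2426 bins and lost peaks over 556. The bin richest in gained peaks was on chromosome 19 from 1 to 2 Mb, with 56 of its 67 tagged peaks gained. It was followed by chromosome 16 from 30 to 31 Mb (44 of 46), chromosome 7 from 27 to 28 Mb (43 of 43), chromosome 16 from 0 to 1 Mb (42 of 47) and chromosome 11 from 64 to 65 Mb (41 of 42). Bins were ranked by count, and 87.8% of all tagged peaks were gained. None of these 5 bins held more than 0.318% of all gained peaks. The bin richest in lost peaks was on chromosome Y from 13 to 14 Mb, with 13 of its 34 parental peaks. Over the parental list 23.8% of peaks were lost. On chromosome 3 from 172 to 173 Mb, 9 of 13 parental peaks were lost, in a bin with 9 tagged peaks. Over 10 Mb, the windows with most lost peaks at neither A498 list were on chromosome 3 from 170 to 180 Mb, with 14 lost of 21 such parental peaks, and chromosome 8 from 110 to 120 Mb, with 12 of 15. The tagged list had 58 peaks in the first of these windows and 36 in the second. Both were picked by count from 287 windows, and over the list 671 of the 1859 such parental peaks were lost.

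Chromosomes differed in how much of the tagged list was common. On chromosome Y 47.5% (34.6 to 60.7) of 61 tagged peaks were common, on chromosome 10 17.6% (15.2 to 20.2) and on chromosome 2 14.8% (13.0 to 16.7), against 12.2% over the list. Single bins of 1 Mb held many of these common peaks. On chromosome Y the bin from 13 to 14 Mb held 21 of 29. On chromosome 10 the bin from 42 to 43 Mb held 40 of 167. On chromosome 2 the bin from 92 to 93 Mb held 28 of 217. Shares without these bins are not given here. On chromosome 14 the share of common peaks was 5.26% (3.53 to 7.52). It was 7.97% (5.68 to 10.8) on chromosome X and 8.21% (6.13 to 10.7) on chromosome 15. Chromosome 14 held 1.15% of common tagged, 2.86% of gained and 1.25% of lost peaks. It had 14.4 tagged peaks for each parental peak, chromosome 10 had 4.16 and chromosome Y 1.36, against 5.96 over the lists.

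The share of parental peaks found again in tagged cells was lowest on chromosome Y (64.4%, 48.8 to 78.1), chromosome 8 (66.3%, 59.1 to 73.0) and chromosome 3 (66.7%, 59.4 to 73.4), and highest on chromosome 16 (87.1%, 80.4 to 92.2) and chromosome 17 (84.9%, 78.8 to 89.8), against 76.2% over the list. The make-up of the chromosomes differed too. Parental peaks at neither A498 list were 68.8% of those on chromosome 3 and 37.9% of those on chromosome 16, against 55.3% over the list. On chromosome Y they were 22.2%, and of its peaks at an A498 peak 71.4% (53.7 to 85.4) were found again. On chromosome 13 they were 75.9%, and 82.8% of all its parental peaks were found again. Among the other parental peaks, those at an A498 peak, 94.8% (85.6 to 98.9) were found again on chromosome 3 and 90.8% (82.7 to 95.9) on chromosome 16, while chromosome 8 had 84.0% (74.1 to 91.2). Among those at neither list, the shares were 53.9% (44.9 to 62.8) on chromosome 3, 52.8% (42.9 to 62.6) on chromosome 8 and 81.1% (68.0 to 90.6) on chromosome 16. These are the extremes of 24 chromosomes, chosen after the values were seen, and DNA copy number, which the lists do not give, was not tested.

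**Figure D5:**
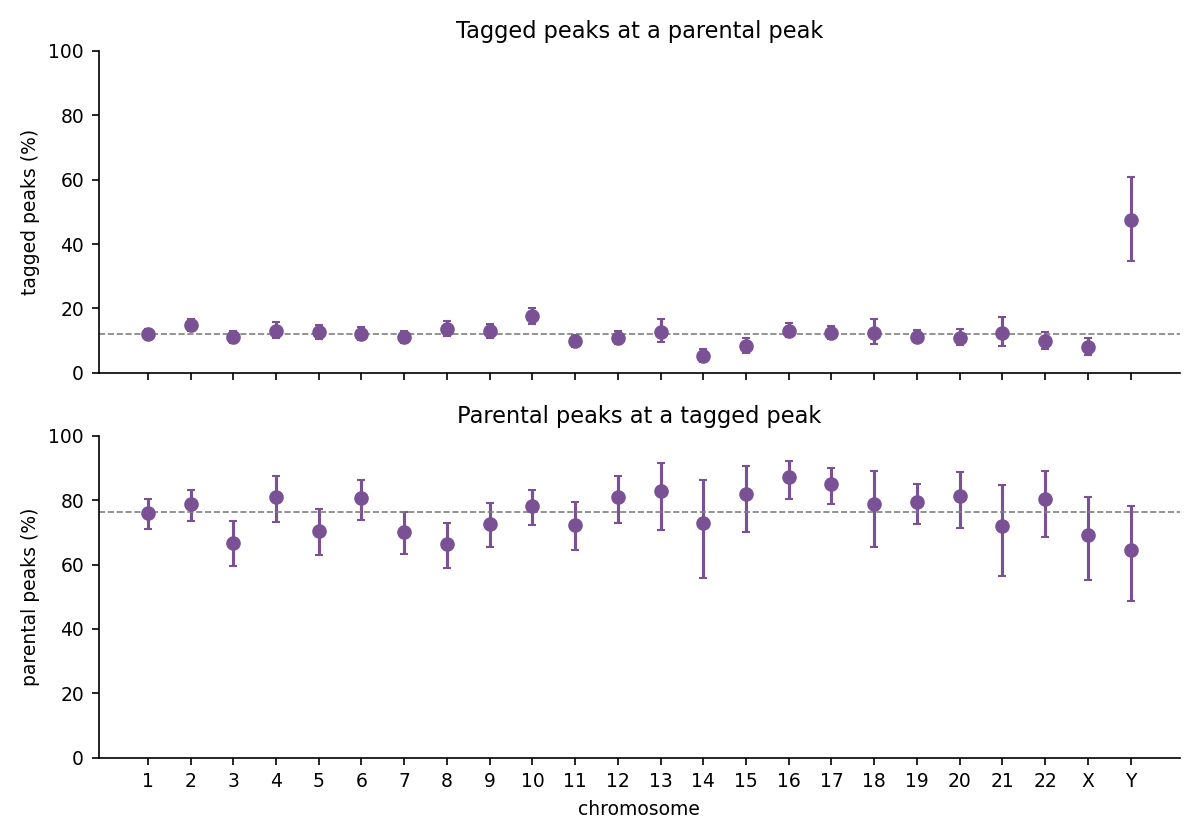
Share of tagged peaks with a parental partner (top, %) and of parental peaks with a tagged partner (bottom, %) on each chromosome (x axis), with exact binomial 95% intervals; dashed lines mark the shares over the whole lists, 12.2% and 76.2%. Chromosome Y stands above the line at the top with 47.5%, chromosome 14 below it with 5.26%, and chromosomes 3 and 8 lie below the line at the bottom.

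With 1 library on each side, no difference above has a replicate check and no p-value is given. The intervals cover counting error over peaks only, treat peaks as independent, and leave out how tagged and parental libraries differ in depth, which the lists do not give.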

How the data were processed

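GFP ChIP-seq libraries of tagged and parental 786-O cells were compared through the peak lists deposited by the authors, with A498 lists as outside readouts. Per the submitters' processing notes, BWA, MACS2 and hg19 were used, with no version or setting given there. Names of peaks in the deposited files show merged alignments with a mapping-quality step, and 1 control library per list. The deposited score was read as a −log10 value, since the 2 lists begin just above 2, as a threshold of 0.01 gives; p or q is not stated. No read counts are given, so depth is unknown. The MYC list names the parental list's control library, so it was set beside gained peaks only, although it had been planned for common and lost peaks. This does not remove the link, since the parental list also defines which peaks are gained.

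Overlaps, widths, edge-to-edge distances and clusters were computed with Python 3.11.15, numpy 2.4.6, pandas 2.3.3 and scipy 1.17.1, and figures drawn with matplotlib 3.10.9. Overlap rules were tested on simulated data and against bedtools 2.31.1. Shares carry Clopper-Pearson 95% intervals. Groups came from sample titles; those titled A498 have 786-O as their cell line tag. Named peaks are the 10 of highest score and 5 widest per class, 5 clusters and bins per class, and 5 common pairs at each extreme of rank. Members and these rules were chosen with earlier results of these data known; the 10 Mb windows, the wide parental peaks and the division by A498 lists were added after the data were seen. Promoter shares, gene lists and sequences need an hg19 annotation or genome and were not analysed here.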

Additional observations from a re-analysis of the deposited data

How the results depend on the processing

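The overlap shares, the median differences in score and width and the shares in clusters were recomputed under other rules, not every rule for each; other values were not recomputed. Under 50% reciprocal overlap, the common share was 3.804% of tagged and 22.7% of parental peaks. Common minus gained medians were 7.14 in score and -92 bp in width, as the rule by construction drops narrow peaks inside wide ones. Of the 57 values recomputed, only this width difference changed sign, which the median differences can do and the shares cannot. Common minus lost scores differed by 8.09, and clusters held 51.7% of common tagged, 17.4% of gained and 15.5% of lost peaks. With midpoints within 200 bp the shares were 9.13% and 54.5%, and the differences 13.2 in tagged score, 127 bp in tagged width and 20 bp in parental width. Counting peaks within 500 bp as shared gave 13.5% and 79.8%, 13.0 in tagged score and 233 bp in tagged width. With scores of 5 or more they were 9.87% and 78.8%, with 216 bp in tagged and 62 bp in parental width. The upper 50% of scores gave 11.4% and 70.5%, lists of equal length 26.8% and 29.3%, and lists without the widest 1% of peaks 11.6% and 72.3%. Linking distances of 5 and 25 kb put 24.2% and 47.6% of common tagged, 10.5% and 33.2% of gained and 17.9% and 27.3% of lost peaks in clusters. Without the 30 bins of 1 Mb that hold 10 or more parental peaks, an alternative chosen after seeing the data, 10.7% of tagged peaks were common, the tagged widths differed by 328 bp, and clusters held 22.4% of common tagged, 15.8% of gained and 13.7% of lost peaks. The reported cluster share was larger in lost than in gained peaks. It stayed so at 5 kb, and turned at 25 kb, with 50% reciprocal overlap and without these bins. The remaining 19 values stayed within the interval of the reported one. Why the other values moved was not tested. Promoter alternatives were not run. No paired analysis was possible because each side is 1 library.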
